A study of Homo sapiens with 6 samples.

Results

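Metallothioneins and the genes of the zinc response were examined in Huh7, a human cell line grown from a hepatocellular carcinoma, after knockdown of ITGB5, the integrin beta 5 subunit. The genes were chosen by symbol, with earlier results of these data known, and number 8 of the 58735 genes in the deposited table. They are the metallothioneins MT1E, MT1F, MT1G, MT1M, MT1X and MT2A, the transcription factor MTF1 and the zinc exporter SLC30A1. All 8 passed the filter on low counts and were among the 16577 genes tested. Cells labelled shITGB5, which carried a short hairpin RNA against ITGB5, gave 3 libraries, and cells labelled shcontrol, which carried a control hairpin, gave 3. Both groups were grown in RPMI-1640 medium with fetal bovine serum, and the labels name no metal treatment. The deposited columns carry letter codes, S and NC, which were read as the ITGB5 hairpin and the control hairpin. No source used here gives the hairpin sequences, the number of hairpins or clones, or the time after knockdown.

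Metallothioneins are small cytosolic proteins that bind zinc, copper and cadmium through cysteine thiols and are made in large amounts by hepatocytes. MTF1 is a zinc finger protein that senses free zinc, moves to the nucleus and binds metal response elements in the promoters of metallothionein genes and of SLC30A1. SLC30A1 carries zinc across the plasma membrane out of the cell, so that both kinds of target lower free zinc. Glucocorticoids also induce several metallothionein genes, MT2A among them.

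The libraries held 15777922 to 18011313 counts, and mitochondrial genes took 3.24% to 3.29% of them in shITGB5 libraries and 3.47% to 3.54% in shcontrol libraries. Levels are CPM, that is, counts scaled to library size with TMM factors, and changes are log2 ratios of shITGB5 to shcontrol from edgeR, adjusted by Benjamini-Hochberg over all genes tested with a threshold of 0.05. ITGB5 lay at 173, 181 and 174 CPM in shITGB5 libraries and at 205, 214 and 217 CPM in shcontrol libraries, which is 16.8% lower in shITGB5 (log2 change -0.27, edgeR adjusted p = 2.13e-09). Of 10 hepatocyte and hepatoma markers, 8 rose and 2 did not pass, where 8.31% of all genes tested were called higher. ALB lay at 3253 CPM ± 34.5 in shITGB5 and 2878 CPM ± 45.3 in shcontrol (SD, n = 3 each). The summed level of these 10 markers was 7796 to 7981 CPM in shITGB5 libraries and 6885 to 7048 CPM in shcontrol libraries, and its part in the results below was not tested. Of 4 tested fibroblast markers 1 rose, LUM, beside the same 8.31% of all genes tested. The summed level of the fibroblast list was 321.3 to 330.2 CPM in shITGB5 libraries and 287.3 to 300.5 CPM in shcontrol libraries. The summed levels were 4.12 to 5.45 CPM in shITGB5 and 3.55 to 5.63 CPM in shcontrol for endothelial markers, and 40.4 to 42.8 CPM in shITGB5 and 37.4 to 37.8 CPM in shcontrol for blood and immune markers, and their part was not tested either. Of 4 endothelial markers 1 was tested, PECAM1, with means of 4.77 CPM in shITGB5 and 4.65 CPM in shcontrol. Of 5 blood and immune markers 2 were tested, CD14 and LYZ. CD14 lay at 34.6 CPM in shITGB5 and 30.7 CPM in shcontrol, and LYZ at 6.24 CPM in shITGB5 and 6.85 CPM in shcontrol. None of these genes passed. The others had too few counts to be tested, among them KDR at 0 in every library and the T cell marker CD3E with at most 1 count. Whether the 3 libraries of a group stem from different cultures is not stated, and every p-value here rests on library-to-library spread that could be technical alone. In bulk RNA, a change per cell and a change in the mix of cell states cannot be told apart.

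Of the 8 genes, 5 rose in shITGB5 cells (MT1E, MT1F, MT1X, MTF1 and SLC30A1) and 3 did not pass (MT2A, MT1G and MT1M). None fell with edgeR, DESeq2 or limma, nor at an unadjusted p under 0.05. Over all genes tested, 15.1% passed the threshold, 8.31% as higher and 6.74% as lower in shITGB5. The median log2 change of the 8 genes was 0.26, beside -3.65e-05 over all genes tested. The groups did not overlap for the same number of members, 5 of 8, against 28.5% of all genes tested. The rises lay between 15.6% and 33.9%. The count of 5 of 8 stands beside the 8.31% of all genes called higher as a description with no test. The genes were chosen with earlier results of these data known, and the metallothioneins are similar copies that can share reads. MT1E, MTF1 and SLC30A1 passed in all 13 alternatives, while MT1F and MT1X did not.

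RefSeq promoter windows, from 250 bases before to 50 bases after the annotated start (GRCh38.p14), were at hand for 4 of the 8 genes: MT2A, MT1X, SLC30A1 and MTF1. The windows of the first 3 are shown because they hold letters that match the metal response element, the kind of site that MTF1 binds. Binding was not measured here. The element was searched as TGCACNC and TGCGCNC on both strands, and matches are in capitals, so that a match on the other strand reads as its reverse complement.
MT2A: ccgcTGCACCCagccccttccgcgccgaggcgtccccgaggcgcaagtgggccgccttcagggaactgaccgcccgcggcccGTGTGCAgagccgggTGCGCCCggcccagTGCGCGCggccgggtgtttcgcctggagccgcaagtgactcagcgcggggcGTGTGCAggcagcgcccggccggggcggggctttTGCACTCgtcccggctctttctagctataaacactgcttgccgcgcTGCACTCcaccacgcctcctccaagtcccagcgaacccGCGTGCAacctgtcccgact
MT1X: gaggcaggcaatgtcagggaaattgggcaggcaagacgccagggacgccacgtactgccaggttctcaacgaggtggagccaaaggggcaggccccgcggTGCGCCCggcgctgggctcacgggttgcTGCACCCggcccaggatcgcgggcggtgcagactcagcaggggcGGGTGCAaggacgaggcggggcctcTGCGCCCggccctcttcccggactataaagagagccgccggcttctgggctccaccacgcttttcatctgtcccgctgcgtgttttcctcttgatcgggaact
SLC30A1: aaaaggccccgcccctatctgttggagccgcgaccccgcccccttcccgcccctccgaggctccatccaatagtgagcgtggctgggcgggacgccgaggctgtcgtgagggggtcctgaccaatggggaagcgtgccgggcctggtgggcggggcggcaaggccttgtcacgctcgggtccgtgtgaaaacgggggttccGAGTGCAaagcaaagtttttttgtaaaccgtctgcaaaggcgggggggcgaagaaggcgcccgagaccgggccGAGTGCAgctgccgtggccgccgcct

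The MT2A window (chr16:56608334-56608633, plus strand) held 8 matches, the MT1X window (chr16:56682220-56682519, plus strand) held 4 and the SLC30A1 window (chr1:211579112-211579411, minus strand) held 2, whereas the MTF1 window held 0. No match overlapped another. Among 35116 promoter windows of the same length, 29.6% held at least 1 match, 8.60% at least 2 and 0.601% at least 4. Among the 16214 windows of tested genes, the shares were 36.55%, 11.25% and 0.734%. A single match was common among all windows, and 4 or more were rare. The 2 matches of SLC30A1 stand beside the 11.25% of tested-gene windows with at least 2. Outside the 8 genes, the MT1H window held 8 matches, as many as that of MT2A, and the MT1B and MT4 windows held 3 each. MT1H and MT4 had a count of 0 in every library, and MT1B had at most 1. The RefSeq starts differ from the gene starts of the deposited table, so the windows do not end at the gene coordinates given with each gene. The SLC30A1 matches lay at positions -49 to -43 and 25 to 31 around the start, both on the other strand. By number of matches the order was MT2A, MT1X and SLC30A1, while the log2 changes of these genes were 0.05, 0.37 and 0.31. A match is a description of the letters and not a measured binding site.

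**Figure D1:**
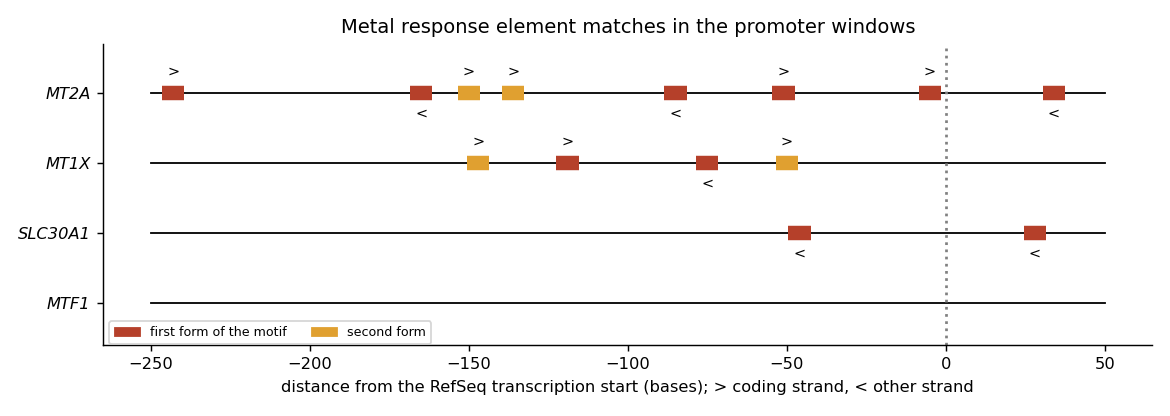
Metal response element matches in the promoter windows of MT2A, MT1X, SLC30A1 and MTF1, by distance from the RefSeq transcription start in bases. Boxes are matches, coloured by the form of the motif searched, and the MT2A line carries 8, the MT1X line 4, the SLC30A1 line 2 and the MTF1 line 0.

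SLC30A1, the zinc exporter of the plasma membrane (ENSG00000170385, chromosome 1, 211571568 to 211578742, minus strand, GRCh38), was the most abundant of the 8 genes in CPM and rose in shITGB5 cells. It lay at 138.0, 141.1 and 133.7 CPM in shITGB5 libraries, against 111.9, 115.5 and 105.4 CPM in shcontrol libraries, with counts of 1664 to 2478. Every shITGB5 library was above every shcontrol library, and the gap between the groups was wider than the range within either. The log2 change was 0.31 (SE 0.038, edgeR adjusted p = 3.18e-09), a rise of 24% with a 95% interval from 17.6% to 30.7%. The call held in all 13 alternatives, where the adjusted p ran from 1.4e-14 to 0.00491.

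MTF1, the metal-sensing transcription factor (ENSG00000188786, chromosome 1, 37809567 to 37859620, minus strand), rose by a like amount. It lay at 31.2, 32.3 and 30.6 CPM in shITGB5 libraries, against 24.7, 25.5 and 24.8 CPM in shcontrol libraries. The groups did not overlap, and the spread within each was below the counting error, with coefficients of variation of 2.83% in shITGB5 and 1.84% in shcontrol against 4.29% in shITGB5 and 4.90% in shcontrol from counting alone. The log2 change was 0.33 (SE 0.073, edgeR adjusted p = 0.000652), which is 25.4% higher (95% interval 13.3% to 38.7%). It passed in all 13 alternatives, with adjusted p between 0.000356 and 0.0308.

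MT1E rose, with the largest estimate of the 8 genes over all 6 libraries, although the interval of MT1X contains its own and MT1X was higher without shITGB5 replicate 3 (0.43 against 0.39 for MT1E, log2). MT1E (ENSG00000169715, chromosome 16, 56625475 to 56627112, plus strand) lay at 66.8, 63.7 and 69.7 CPM in shITGB5 libraries, against 51.4, 52.0 and 46.0 CPM in shcontrol libraries. Its counts were 1052 to 1227 in shITGB5 and 727 to 896 in shcontrol, and the groups did not overlap. The log2 change was 0.42 (SE 0.054, edgeR adjusted p = 8.43e-09), or 33.9% higher with a 95% interval from 24.3% to 44.2%. All 13 alternatives kept the call, with adjusted p from 7.94e-14 to 0.00409.

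MT1X and MT1F also rose, closer to the threshold. MT1X (ENSG00000187193, chromosome 16, 56682424 to 56684196, plus strand) lay at 10.9, 10.3 and 9.20 CPM in shITGB5 libraries, against 8.60, 7.87 and 7.03 CPM in shcontrol libraries. The groups stood apart, but by less than the range within either, and the log2 change of 0.37 (SE 0.127) had an edgeR adjusted p of 0.0399. MT1X missed the threshold in 7 of 13 alternatives: with DESeq2 (adjusted p = 0.0651), with every gene above 0 kept (0.0706), with limma on log2(FPKM + 1) (0.0606), and without shcontrol replicate 2 (0.0915), shcontrol replicate 3 (0.195), shITGB5 replicate 1 (0.167) or shITGB5 replicate 2 (0.0988). Over all alternatives its adjusted p ran from 0.0274 to 0.195.

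MT1F (ENSG00000198417, chromosome 16, 56657694 to 56660698, plus strand) lay at 35.58, 37.88 and 38.63 CPM in shITGB5 libraries, against 32.97, 32.09 and 31.85 CPM in shcontrol libraries. No shITGB5 library fell within the shcontrol range, and the log2 change was 0.21 (SE 0.066, edgeR adjusted p = 0.0210), or 15.6% higher (95% interval 5.49% to 26.7%). The call was lost without shcontrol replicate 2 (adjusted p = 0.0648), shcontrol replicate 3 (0.0715), shITGB5 replicate 2 (0.0676) or shITGB5 replicate 3 (0.117). Over the 13 alternatives its adjusted p ran from 0.0168 to 0.117, and its log2 change stayed between 0.18 and 0.24.

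MT2A, the most abundant metallothionein here, did not pass. MT2A (ENSG00000125148, chromosome 16, 56608199 to 56609497, plus strand) lay at 111.1, 106.6 and 110.7 CPM in shITGB5 libraries, against 101.5, 102.4 and 113.5 CPM in shcontrol libraries. The groups overlapped because shcontrol replicate 3 was the highest of the 6 libraries, while the other 2 controls were the lowest. The log2 change was 0.05 (SE 0.041, edgeR adjusted p = 0.487), with a 95% interval from 2.12% lower to 9.68% higher. This interval overlaps those of MT1F and MT1X (from 8.04% to 53.7% for MT1X). Over all 6 libraries it lies below those of MT1E (from 24.3%), SLC30A1 (from 17.6%) and MTF1 (from 13.3%). Without shcontrol replicate 3 the log2 change of MT2A was 0.10 (edgeR adjusted p = 0.139, with 0.139 to 0.871 over its alternatives).

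MT1G and MT1M did not pass either, at lower counts. MT1G (ENSG00000125144, chromosome 16, 56666731 to 56668065, minus strand) lay at 12.3, 10.9 and 13.6 CPM in shITGB5 libraries, against 12.4, 10.1 and 10.5 CPM in shcontrol libraries. The groups overlapped, and its log2 change was 0.16 (SE 0.115, edgeR adjusted p = 0.433). MT1M (ENSG00000205364, chromosome 16, 56632233 to 56633986, plus strand) lay at 4.57, 4.18 and 4.15 CPM in shITGB5 libraries, against 3.38, 5.85 and 4.75 CPM in shcontrol libraries. All 3 shITGB5 values fell inside the wide shcontrol range, where the coefficient of variation was 26.5% against 11.4% from counting alone. Its log2 change of -0.11 (SE 0.183, edgeR adjusted p = 0.770) turned to 0.09 without shcontrol replicate 2, with adjusted p from 0.369 to 0.872 over the alternatives. The intervals of both genes, from -0.07 to 0.39 for MT1G and from -0.48 to 0.25 for MT1M on the log2 scale, include changes as large as that of MT1F.

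**Figure D2:**
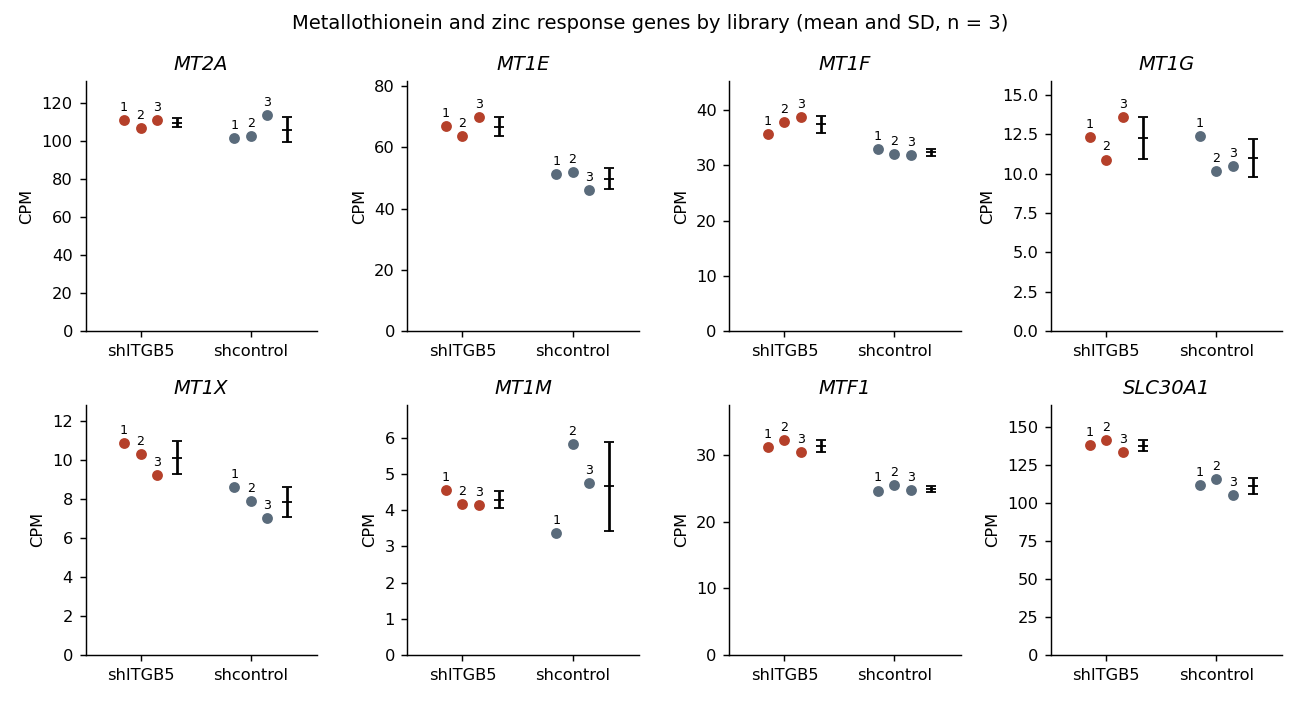
CPM of each of the 8 genes in every library, with shITGB5 left of shcontrol, the replicate number above each point, and the mean with SD (n = 3) beside the points. The groups stand apart for MT1E, MT1F, MT1X, MTF1 and SLC30A1 and overlap for MT2A, MT1G and MT1M.

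Whether the metallothioneins moved unlike MT2A was tested on the ratio of each to MT2A within a library, where scaling cancels. MT1E counts equalled 60.1%, 59.7% and 63.0% of MT2A counts in shITGB5 libraries, against 50.6%, 50.7% and 40.6% in shcontrol libraries. This ratio was higher in all 3 shITGB5 libraries than in any control, by 0.37 on the log2 scale, with p = 0.1 in a two-sided exact permutation test, the smallest p that 3 libraries against 3 allow (0.333 adjusted over 5 ratios). MT1X and MT1F differed from MT2A by 0.32 and 0.16 (exact p = 0.2 each, adjusted 0.333 each), MT1G by 0.11 (exact p = 0.4, adjusted 0.5) and MT1M by -0.13 (exact p = 0.7, adjusted 0.7). For these 4 genes the ratios of both groups overlapped. With 1 library left out, the log2 difference ran from 0.27 to 0.43 for MT1E and from 0.19 to 0.42 for MT1X. It ran from 0.10 to 0.20 for MT1F and from 0.02 to 0.22 for MT1G, and each of these 4 was lowest without shcontrol replicate 3. With 3 libraries against 3 this test cannot pass 0.05 whatever the ratios, so it does not decide whether the members differ.

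MT2A made up less of the metallothionein pool in shITGB5 libraries and MT1E more. MT2A supplied 45.6% ± 0.535 of the counts of the 6 metallothioneins in shITGB5 and 50.03% ± 2.69 in shcontrol, and MT1E supplied 27.8% ± 0.539 in shITGB5 and 23.6% ± 1.75 in shcontrol (SD, n = 3 each). In shcontrol, replicate 3 lay furthest from shITGB5, at 53.1% for MT2A and 21.55% for MT1E. Replicates 1 and 2 of shcontrol lay at 48.3% and 48.7% for MT2A and at 24.4% and 24.7% for MT1E. Summed over the 6 genes, the pool was 241, 233 and 246 CPM in shITGB5 libraries, against 210, 210 and 214 CPM in shcontrol libraries, a ratio of means of 1.14. The sum of the 5 MT1 genes without MT2A was 130, 127 and 135 CPM in shITGB5 libraries, against 109, 108 and 100 CPM in shcontrol libraries, a ratio of 1.24. These shares and sums are a description with no test. The total over the 6 genes could depend on reads shared with other metallothionein genes or left uncounted. It does not depend on how reads were divided among the 6 genes, whereas the shares and the MT1 sum do.

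Such a division matters because the copies are alike. In the principal GENCODE 29 transcripts each of the 6 metallothioneins had 61 codons before the stop, 20 of them for cysteine. Their coding sequences were 88.7% to 95.2% identical to each other, with MT1F and MT1X the least alike and MT1G and MT2A the most alike pair. Of all 50-base windows of the transcript, the share found unchanged in another metallothionein gene was 20.2% for MT1G, 15.96% for MT1X, 7.05% for MT1M, 5.34% for MT1E, 4.88% for MT2A and 3.59% for MT1F, and it was 0% for MTF1 and SLC30A1. The treatment of reads that match several genes is not given in the sources used here. By this share the MT1G and MT1X values are the most exposed of the 6, with 72 and 64 shared windows. MT1M follows with 55 on a longer transcript (829 bases, against 406 for MT1G and 450 for MT1X), which lowers its share. The share takes no account of how abundant the other copies are. No other gene with counts overlapped any of the 8 in position, on either strand.

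Compared per length, MT2A led in both groups. With the length of the principal transcript, MT2A lay at 139.3 ± 3.23 FPKM in shITGB5 and 134.6 ± 8.48 FPKM in shcontrol, and MT1E at 94.8 ± 4.30 FPKM in shITGB5 and 70.7 ± 4.64 FPKM in shcontrol (SD, n = 3 each here and below). MT1F followed at 54.1 ± 2.30 FPKM in shITGB5 and 46.8 ± 0.854 FPKM in shcontrol. The middle of the order was the same in both groups: MT1G, SLC30A1 and MT1X had means of 30.2, 25.1 and 22.5 FPKM in shITGB5 and of 27.1, 20.3 and 17.4 FPKM in shcontrol. MT1M and MTF1 were lowest, at 5.18 ± 0.282 and 3.93 ± 0.111 FPKM in shITGB5 and at 5.62 ± 1.49 and 3.14 ± 0.0577 FPKM in shcontrol. No neighbours in this order overlapped between libraries of a group. The order rests on the transcript lengths taken, which for the metallothioneins run from 406 bases for MT1G and 450 for MT1X to 786 for MT2A and 829 for MT1M. Which transcripts the cells made was not tested. With the gene length of the deposited table, which for MT1X is 1773 bases against 450 in the transcript, MT1X dropped to 5.71 ± 0.474 FPKM in shITGB5 and 4.42 ± 0.444 FPKM in shcontrol, and SLC30A1 moved up to the third place. On that length, MT1X and MT1M overlapped in the shcontrol libraries.

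The 6 metallothioneins lie within one cluster on chromosome 16, which spans 119.1 kb from MT4 to MT1X and holds 16 metallothionein genes and pseudogenes. MT1E, MT1F and MT1X, which rose, lie 17.3, 49.5 and 74.2 kb from MT2A. MT1M, MT1A and MT1G, which did not pass, lie among them, and the intervals of all 3 include the log2 change of MT1F. Of 15 further metallothionein genes and pseudogenes in the table, 2 had enough counts to be tested. MT1A lay at 2.44 CPM ± 0.0155 in shITGB5 and 2.38 CPM ± 0.553 in shcontrol (SD, n = 3 each, log2 change 0.03, edgeR adjusted p = 0.957). The pseudogene MT1L lay at 1.559, 1.997 and 2.159 CPM in shITGB5 libraries, against 1.548, 1.491 and 0.7597 CPM in shcontrol libraries (log2 change 0.58, edgeR adjusted p = 0.253), so that the groups stood apart by a small gap and the gene did not pass. MT1JP, MT1DP, MT1P1, MT1IP, MT1XP1, MT1B and MT2P1 had at most 6 counts in any library, and 6 others, MT1H and the brain metallothionein MT3 among them, had a count of 0 in every library, which allows up to 0.190 CPM for counting error only. Outside the cluster, the nearest tested genes, named for their position, did not pass: BBS2 (log2 change -0.10, edgeR adjusted p = 0.478) on one side and NUP93 (-0.06, adjusted p = 0.447) on the other.

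**Figure D3:**
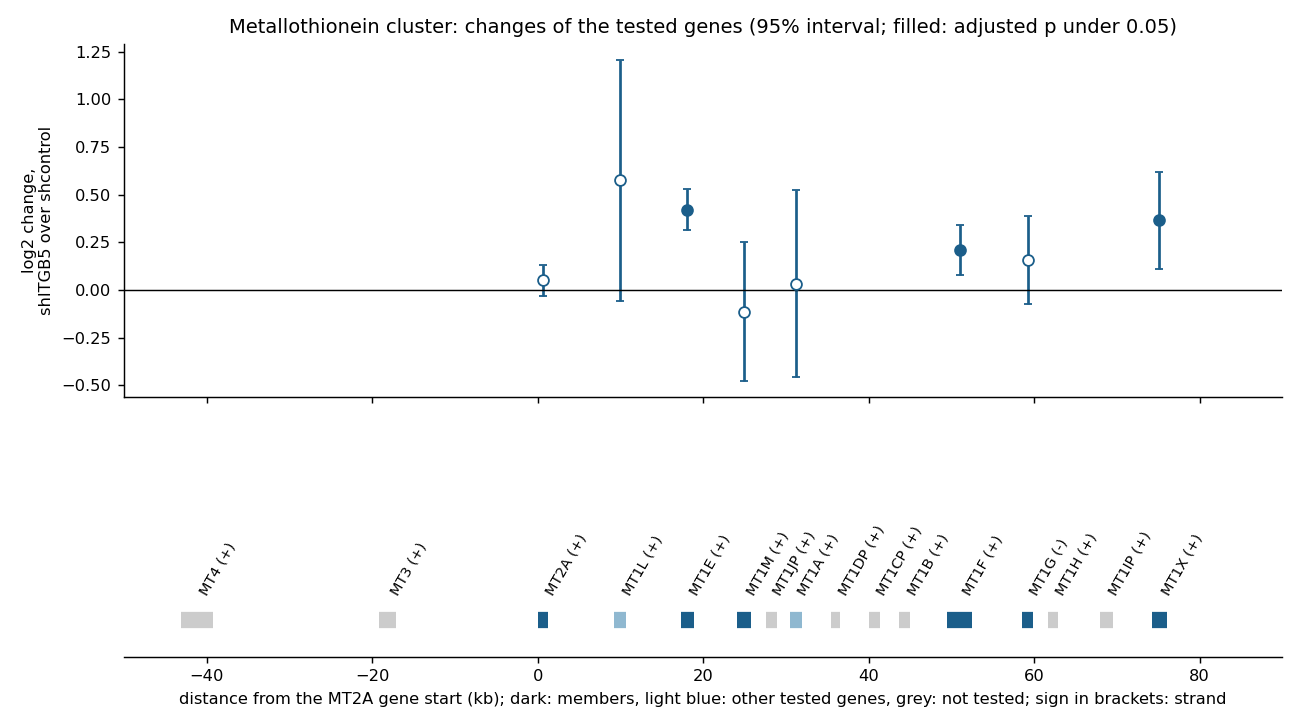
Log2 change of the tested metallothionein genes (shITGB5 over shcontrol, with 95% intervals, filled where the adjusted p was under 0.05) above a map of the cluster, by distance from the MT2A gene start in kb. MT1E at 0.42, MT1F at 0.21 and MT1X at 0.37 are filled, and the open points of MT1M, MT1A and MT1G lie among them.

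The other zinc transporters are given as families, beside the 8.31% of all genes tested that were called higher and the 6.74% called lower. Of 9 other SLC30 exporters, 8 were tested, and none passed in either direction with edgeR, DESeq2 or limma, with a median log2 change of -0.03. A count of 0 of 8 is near these shares. At an unadjusted p under 0.05 there was 1, SLC30A7, named after its values were seen (log2 change -0.12, edgeR adjusted p = 0.0814, with 0.0344 to 0.374 over its alternatives). By mean CPM over all 6 libraries the most abundant of them were SLC30A9, a zinc exporter of mitochondria, and SLC30A5, which loads zinc into the secretory pathway and lay close to SLC30A7 (means of 75.04 CPM for SLC30A5 and 74.97 CPM for SLC30A7). SLC30A9 lay at 126, 120 and 124 CPM in shITGB5 libraries, against 118, 125 and 130 CPM in shcontrol libraries. SLC30A5 lay at 78.6, 72.0 and 71.0 CPM in shITGB5 libraries, against 80.3, 74.1 and 74.3 CPM in shcontrol libraries. The groups overlapped for both, with edgeR adjusted p of 0.889 and 0.620.

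Of 14 SLC39 importers, which bring zinc into the cytosol, 11 were tested, of which 1 rose, 1 fell and 9 did not pass, with a median log2 change of 0.05, and these counts too are near the shares over all genes. SLC39A5, found on the basolateral membrane of gut epithelium in mouse, lay at 28.1, 29.3 and 27.1 CPM in shITGB5 libraries, against 21.4, 20.2 and 22.7 CPM in shcontrol libraries (log2 change 0.40, SE 0.078, edgeR adjusted p = 0.000117). It overlaps ANKRD52 on the other strand, whose counts were 1314% of those of SLC39A5. SLC39A8, which imports zinc and manganese, lay at 63.1, 65.2 and 64.2 CPM in shITGB5 libraries, against 75.4, 73.6 and 77.1 CPM in shcontrol libraries (log2 change -0.23, SE 0.047, edgeR adjusted p = 0.000172). The groups did not overlap for either gene. SLC39A10, named because MTF1 represses it in mouse and zebrafish, lay at 37.6, 36.8 and 38.9 CPM in shITGB5 libraries, against 40.5, 38.8 and 41.8 CPM in shcontrol libraries, and did not pass (log2 change -0.09, edgeR adjusted p = 0.372).

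**Figure D4:**
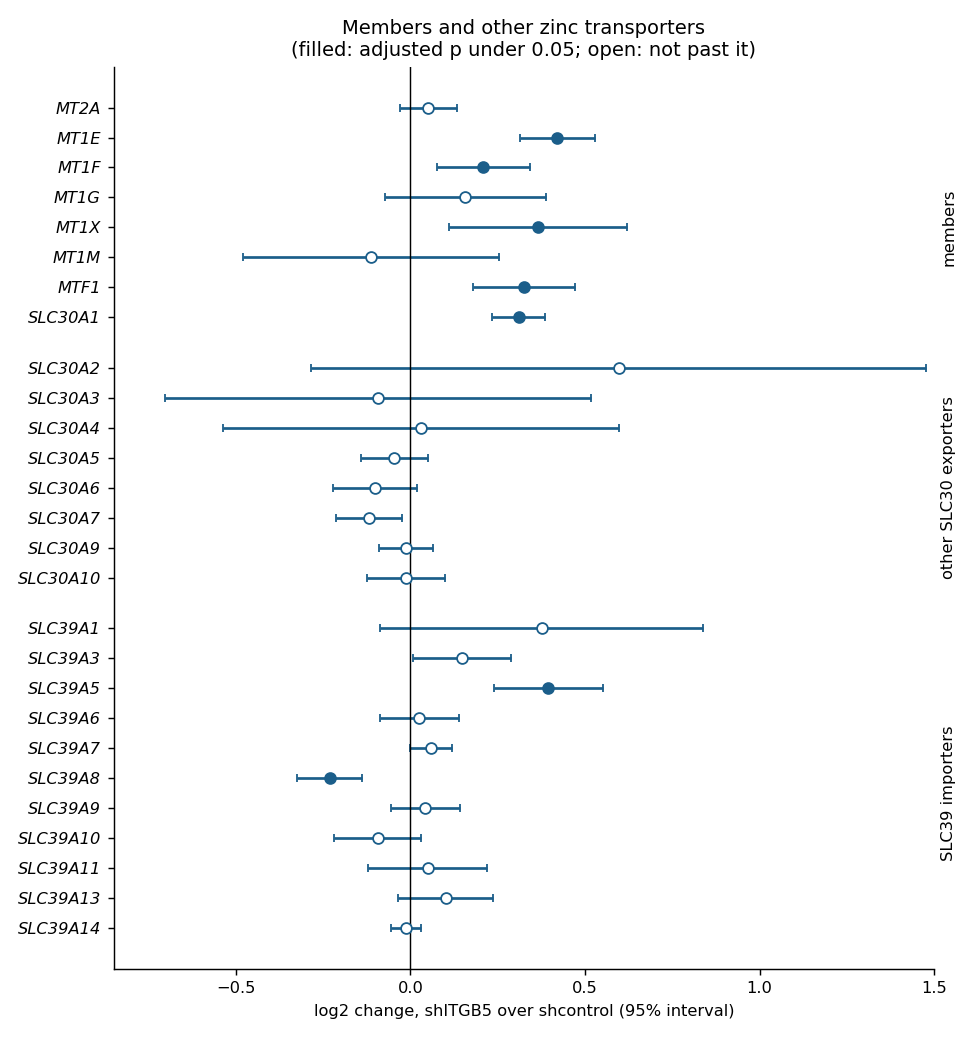
Log2 change of shITGB5 over shcontrol with 95% intervals for the 8 genes, the other tested SLC30 exporters and the tested SLC39 importers, filled where the adjusted p was under 0.05. Among the transporters, SLC30A1 at 0.31 and SLC39A5 at 0.40 lie to the right of 0 and SLC39A8 at -0.23 to the left.

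The copper-handling and heavy-metal lists are likewise given beside the shares over all genes tested. Of 9 tested copper-handling genes, 1 rose and 8 did not pass, near the 15.1% of all genes tested that passed in either direction. The gene that rose, COX17, the copper chaperone of cytochrome c oxidase, lay at 61.4, 61.7 and 60.3 CPM in shITGB5 libraries, against 51.7, 49.9 and 48.6 CPM in shcontrol libraries (log2 change 0.29, edgeR adjusted p = 2.53e-05). Of 10 genes that heavy metals and oxidants induce, 3 fell and 7 did not pass, with a median log2 change of 0.03. The log2 change was above 0 for 6 of the 10, none of which passed, so the list was mixed in direction. A count of 3 of 10 is above the 6.74% of all genes tested that were called lower, a description with no test. Those that fell were the thioredoxin reductase TXNRD1 (log2 change -0.26, edgeR adjusted p = 3.95e-11) and the subunits of the enzyme that starts glutathione synthesis, GCLC (-0.22, adjusted p = 0.00148) and GCLM (-0.16, adjusted p = 0.00572). GCLC missed the threshold with limma (adjusted p = 0.0766, with 0.000159 to 0.0766 over its alternatives), and TXNRD1 contains the pseudogene RPL18AP3, whose counts were 17.5% of its own. All 3 GCLM values in shITGB5, from 75.9 to 76.3 CPM, lay below the shcontrol values of 84.7 to 85.7 CPM.

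Of 10 glucocorticoid-induced genes, 1 rose, 4 fell and 5 did not pass, with a median log2 change of -0.01. Over all genes tested, 8.31% were called higher and 6.74% lower. TSC22D3 lay at 52.1, 50.2 and 47.6 CPM in shITGB5 libraries, against 72.6, 72.1 and 74.4 CPM in shcontrol libraries (log2 change -0.55, SE 0.051, edgeR adjusted p = 3.46e-13). The kinase SGK1 fell to 211, 208 and 215 CPM in shITGB5 libraries, against 252, 258 and 251 CPM in shcontrol libraries (log2 change -0.26, edgeR adjusted p = 2.82e-10). The cell cycle inhibitor CDKN1C fell at low counts (log2 change -0.65, edgeR adjusted p = 0.00317), a call lost with limma and without shITGB5 replicate 3 (adjusted p = 0.0666, with 0.000995 to 0.0666 over its alternatives). The other gene to fall was the EGF receptor inhibitor ERRFI1 (log2 change -0.14, edgeR adjusted p = 0.00453), named after its values were seen. FKBP5, a cochaperone of the glucocorticoid receptor, rose (log2 change 0.30, edgeR adjusted p = 0.00186), except with limma on log2(FPKM + 1) (adjusted p = 0.0644, with 0.0014 to 0.0644 over its alternatives). The genes of this list thus moved in both directions. The 1 rise of 10 is near the share over all genes and the 4 falls of 10 lie above it, a description with no test.

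By profile over the 6 libraries, the protein-coding genes nearest to MT2A were GPR137C, COQ5, KLF16 and MRPS10, with root mean square differences of 0.00886 to 0.0202 between centred log2 CPM values. In each of the 4, as in MT2A, shcontrol replicate 3 was the highest of the 6 libraries and the other controls were the lowest, a shape that the rule selects for. None of the 4 passed (edgeR adjusted p from 0.7205 to 0.8025).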

How the data were processed

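RNA from Huh7 cells was sequenced in 3 libraries labelled shITGB5 and 3 labelled shcontrol, prepared with a directional kit according to the labels' protocols. The deposited table holds whole-number counts per gene and a gene length in bases, although it is named for FPKM; the aligner, counter, strand setting and treatment of reads that match several genes were not found in any source used here. Gene identifiers, positions and strands are those of the deposited table, and transcripts are from GENCODE 29 (GRCh38). Every expression column of the table was mapped to a group.

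Counts were tested with edgeR 4.0.16 (R 4.3.3): TMM scaling, filterByExpr, the quasi-likelihood test and Benjamini-Hochberg adjustment over 16577 genes, with a threshold of 0.05. Totals of 15777922 to 18011313 counts put the level that a count of 0 allows (3 counts) at 0.167 to 0.190 CPM, for counting error only. FPKM values were computed from the deposited counts with each length named. Ratios to MT2A used log2 of counts plus 0.5. Alternatives were DESeq2 1.42.0, limma 3.58.1 on log2(FPKM + 1), other scaling and filters, a block for the replicate number, and 1 library left out at a time. Coding sequences were aligned with Biopython 1.88. The fit was tested on simulated data. Libraries of a group differed by more than sampling noise (chi-square per degree of freedom 2.01 to 2.32).

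The members and gene lists were chosen with earlier results of these data known. Named genes are the 8 members, other metallothionein genes with counts, up to 4 genes of each pathway list that passed with the largest change, or the 2 most abundant where none passed, and the 5 protein-coding genes of at least 5 CPM nearest to MT2A in profile, of which 1 is not reported here.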

Additional observations from a re-analysis of the deposited data

How the results depend on the processing

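MT1E, MTF1 and SLC30A1 kept their direction and stayed past the threshold in all 13 alternatives, and MT2A and MT1G kept theirs short of it. The number of genes past the threshold was 2495, and 1319 with limma on log2(FPKM + 1) (736 higher and 583 lower in shITGB5). It was 1939 to 2183 when 1 library was left out, and 2303 with the replicate number as a block. Replicate numbers did not pair the samples (correlations of same-numbered deviations from -0.0174 to 0.028), and the block changed no member's call.

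The log2 change of MT1X missed the threshold at 0.37 with DESeq2, 0.37 with every gene above 0 kept and 0.31 with limma. With 1 library left out it ran from 0.29 to 0.44, MT1F from 0.18 to 0.24, MT1G from 0.08 to 0.25 and MT1M from -0.30 to 0.0851, the last reversed without shcontrol replicate 2. The ratio of MT1M to MT2A ran from -0.32 to 0.069, likewise reversed at 0.069 without shcontrol replicate 2. The cause was not tested. Adding 0 or 5 to both counts in place of 0.5 turned none of the 5 ratios.

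With 3 libraries a group, no exact permutation p can fall below 0.1. MT1M and MT1X, at 59 to 195 counts a library, carry the widest intervals of the 8 genes.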
